A study of Mus musculus with 8 samples.

Results

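The T cell and cytotoxic lymphocyte genes described here were Cd3d, Cd3e, Cd3g, Cd4, Cd8a, Gzma, Gzmb, Prf1, Nkg7 and Lck, listed by name. A gene was taken as measured where a probe set of the array named it as its only gene symbol in the array annotation. This held for 9 of the 10 genes, with 1 probe set each, out of 34760 probe sets in all, of which 21640 named 1 gene. Lck, the kinase that acts first after T cell receptor engagement, was not the only gene symbol of any probe set in the annotation used and was not analysed here.

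Gene expression was measured in total, non-FACS-sorted mammary cell suspensions on 8 Affymetrix Mouse Gene ST arrays, 4 of parous mice and 4 of age-matched virgin control mice. Every sample was 1 pool of RNA, from the 4th mammary glands of 5 mice of the inbred strain FVB/NHanHsd, so that a value is an average over mice and the spread between arrays is a spread between pools. Mating of the parous mice took place at 42 days of age, after which they had nursed for 21 days and, per the labels, had been left for 28 days of mammary gland involution, whereas the study's methods give a longer interval after weaning. Virgin control mice had not been mated. In both groups the lymph nodes were cut out before digestion, and the digest was spun to clear adipocytes, treated to lyse erythrocytes and left on plastic for a time to lower the share of fibroblasts. The cells were not sorted for or against leukocytes, and the estrous stage of each pool was not given in the sources used here.

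T cells recognise peptides on MHC molecules through a receptor that cannot signal by itself and relies on the CD3 chains, while the coreceptors CD4 and CD8 bind MHC class II and class I and mark helper and cytotoxic T cells. Cytotoxic T cells and natural killer (NK) cells kill by releasing granules that hold perforin, which opens the target membrane, and granzymes, the serine proteases that enter through it. In the mammary gland T cells and NK cells lie in the stroma and between the epithelial cells of the ducts, and the inguinal lymph node is embedded in the fat pad of the 4th gland. Because whole suspensions were measured, fewer cells of a type and less RNA per cell cannot be told apart in any value below.

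Promoters of 2 sets of genes whose mean levels ordered the pools differently are shown first. RefSeq (GRCm38.p6) gave a promoter for 8 of the 9 measured genes, each a window of 300 bases from 250 before to 50 after the transcription start. Cd3d and Cd3g are head-to-head neighbours on chromosome 9, and their starts lie 1355 bases apart. The windows printed here are those of the 3 CD3 chain genes, which followed one another closely across the arrays, and of 3 granule genes, which had the lowest p-values among the listed genes. Capitals mark every match, on either strand, to 5 short motifs of factors used by lymphocytes. The letters searched were TGTGGT for RUNX factors, AGGAAG for factors of the ETS family, AGATAA for the GATA family, GGTGTG for T-box factors and TGAGTCA for the dimer AP-1. No 2 matches overlapped in these windows.
Cd3d, chr9:44981536-44981835, plus strand: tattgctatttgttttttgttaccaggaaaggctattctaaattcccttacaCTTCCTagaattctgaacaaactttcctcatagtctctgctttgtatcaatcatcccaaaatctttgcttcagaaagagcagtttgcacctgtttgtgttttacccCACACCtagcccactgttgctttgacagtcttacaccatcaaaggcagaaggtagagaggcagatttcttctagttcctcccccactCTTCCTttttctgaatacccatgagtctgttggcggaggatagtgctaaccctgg
Cd3g, chr9:44980382-44980681, minus strand: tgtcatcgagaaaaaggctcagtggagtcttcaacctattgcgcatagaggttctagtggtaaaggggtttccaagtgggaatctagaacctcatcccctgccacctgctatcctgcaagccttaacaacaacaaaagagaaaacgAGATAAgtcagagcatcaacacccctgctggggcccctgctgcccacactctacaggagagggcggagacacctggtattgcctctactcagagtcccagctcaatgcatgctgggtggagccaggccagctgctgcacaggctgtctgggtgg
Cd3e, chr9:45009562-45009861, minus strand: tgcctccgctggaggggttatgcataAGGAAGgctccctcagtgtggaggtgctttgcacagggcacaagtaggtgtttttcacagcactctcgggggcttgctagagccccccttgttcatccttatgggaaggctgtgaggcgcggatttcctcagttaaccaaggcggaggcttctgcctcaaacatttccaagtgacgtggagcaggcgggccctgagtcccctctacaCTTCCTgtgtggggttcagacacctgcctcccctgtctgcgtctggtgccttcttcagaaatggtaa
Gzma, chr13:113100932-113101231, minus strand: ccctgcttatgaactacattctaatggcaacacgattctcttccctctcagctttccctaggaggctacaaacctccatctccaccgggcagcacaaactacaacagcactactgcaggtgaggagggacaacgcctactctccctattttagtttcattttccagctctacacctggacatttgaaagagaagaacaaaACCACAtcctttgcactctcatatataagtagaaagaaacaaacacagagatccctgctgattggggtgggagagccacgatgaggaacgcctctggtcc
Gzmb, chr14:56262285-56262584, minus strand: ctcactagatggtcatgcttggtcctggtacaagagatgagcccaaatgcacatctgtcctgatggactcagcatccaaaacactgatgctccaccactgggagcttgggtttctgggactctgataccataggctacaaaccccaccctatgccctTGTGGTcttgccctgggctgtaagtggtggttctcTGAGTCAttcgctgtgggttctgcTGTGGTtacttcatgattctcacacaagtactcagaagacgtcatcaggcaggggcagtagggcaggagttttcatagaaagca
Prf1, chr10:61297586-61297885, plus strand: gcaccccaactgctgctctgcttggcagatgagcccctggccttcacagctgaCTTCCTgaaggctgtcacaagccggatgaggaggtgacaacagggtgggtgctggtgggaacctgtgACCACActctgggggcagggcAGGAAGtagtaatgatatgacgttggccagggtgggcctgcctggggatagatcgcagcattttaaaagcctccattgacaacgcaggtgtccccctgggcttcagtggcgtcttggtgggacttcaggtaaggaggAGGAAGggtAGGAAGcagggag

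The RUNX letters were present in the windows of all 4 granule genes (Gzma, Gzmb, Prf1 and Nkg7) and in none of the 4 windows of Cd3d, Cd3e, Cd3g and Cd8a, against 16.8% of the 32851 mouse promoters of the same length. In Gzmb they occurred at positions -93 and -34 from the start, with an AP-1 match at -58 between them, and in Gzma at -50. The ETS letters were found in 4 of the 8 windows, 2 of granule genes and 2 of CD3 genes (35.4% of all promoters). Cd3d held an ETS match that began at -5 and reached over the start. Prf1 held 4, at -197, -109, 29 and 38 from its start. The GATA letters occurred only in the Cd3g window, at -104 (11.2% of all promoters), the AP-1 letters only in Gzmb (5.2%) and the T-box letters in Cd3d and Nkg7 (19% of all promoters). These are matches of letters and not measured binding sites.

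None of the 9 lymphocyte genes differed between parous and virgin mice by the criteria of the study's methods. The mean levels of the 2 classes of genes ordered the pools differently, though single granule genes partly followed the order of the CD3 genes. The 5 genes of T cell identity (CD3 chains and coreceptors) had differences close to 0 beside a very large spread between pools of the same group. The 4 granule genes had a smaller spread than these, though with median SDs of 0.28 in parous and 0.26 in virgin mice it was above the medians of all genes (0.13 and 0.15), and had values 1.36- to 1.52-fold higher in parous mice that did not pass the adjusted test. Differences were tested with limma on the log2 values, and a probe set was called where the linear fold change was over 1.5, the Benjamini-Hochberg adjusted p under 0.05 over all probe sets, and the mean linear expression over 4. By this rule 0 of the 9 were called, where 138 of 34760 probe sets (0.397%) were called in all, 83 higher and 55 lower in parous mice. At an unadjusted p under 0.05, 3 of the 9 (Gzma, Gzmb and Prf1) were higher in parous mice and 0 were lower, against 5.26% of all probe sets that were higher by this rule. For 0 of the 9 did every parous array lie above every virgin array, which held for 3.54% of all probe sets. The median log2 fold change over the 9 genes was 0.25, with 8 above 0 and 1 below, where the median over 19937 genes was 0.00 and 50.7% of them were above 0. This median rested on single pools: it was 0.031 without virgin pool 2, 0.033 without virgin pool 4, 0.056 without parous pool 1 and 0.58 without virgin pool 3.

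**Figure D1:**
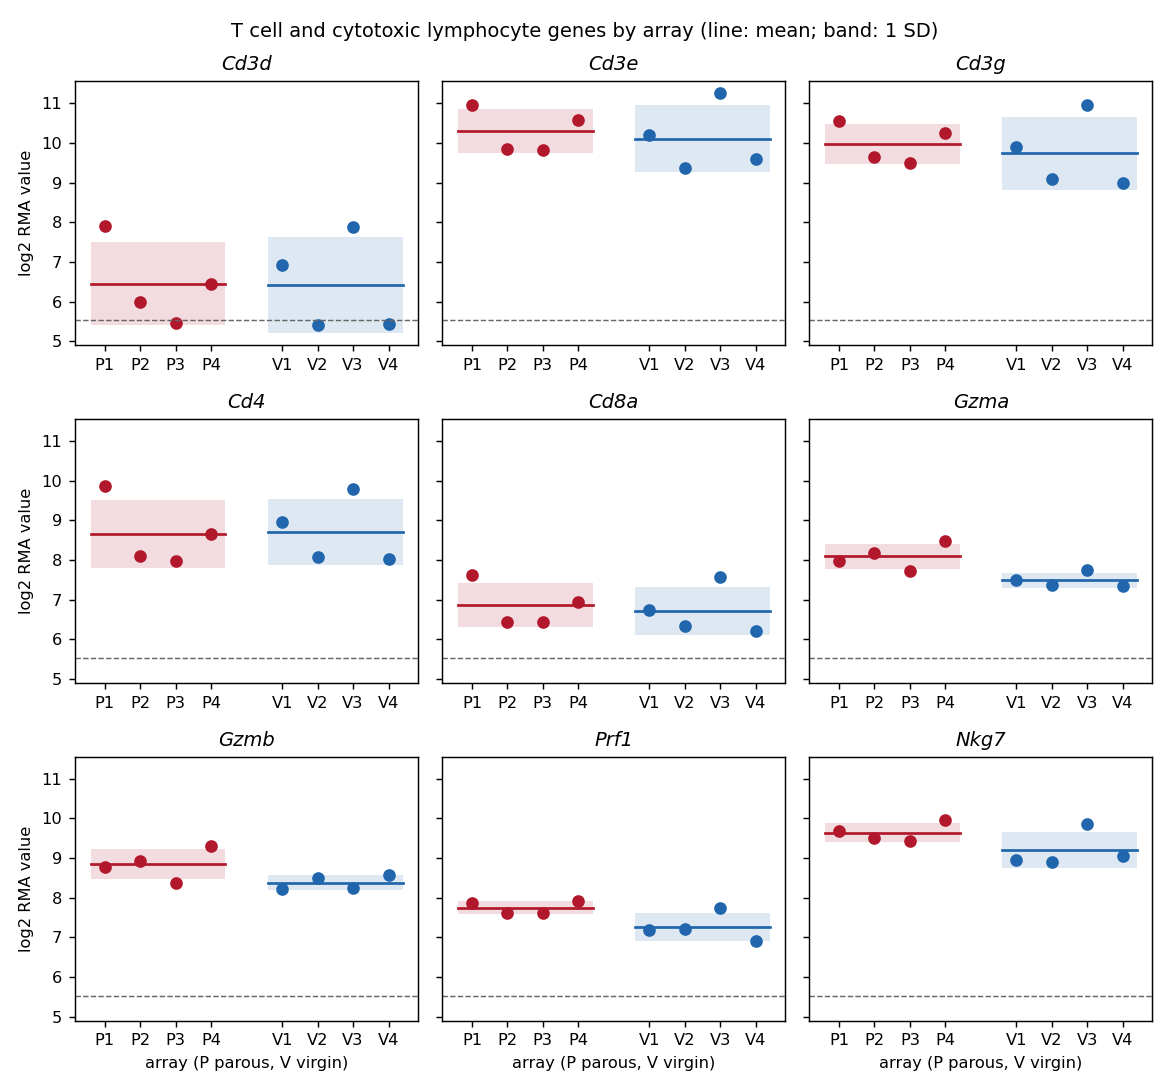
Log2 RMA values (y axis) of the 9 measured lymphocyte genes on each array (x axis, P1 to P4 parous pools in red, V1 to V4 virgin pools in blue). Lines are group means, bands are 1 SD over 4 arrays and the dashed line is the 95th percentile of the olfactory receptor probe sets at 5.53. In Cd3d, Cd3e, Cd3g, Cd4 and Cd8a the arrays P1 and V3 lie above the other 6, while Gzma, Gzmb and Prf1 are more even within each group.

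The CD3 chains carry the signalling motifs of the T cell receptor complex and are the textbook markers of T cells. Cd3e (CD3 epsilon, probe set 10593024) had log2 values of 10.96, 9.85, 9.82 and 10.57 in parous mice and 10.19, 9.37, 11.25 and 9.60 in virgin mice. The highest and the lowest of the 8 values were both virgin pools, so that the parous range lay wholly within the virgin range. Its means were 10.30 ± 0.56 in parous and 10.10 ± 0.84 in virgin mice (SD, n = 4 each), a log2 fold change of 0.20 with a 95% confidence interval of -0.78 to 1.18 (exact permutation p = 0.714, limma adjusted p = 0.917).

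Cd3g (CD3 gamma, probe set 10593015) read 10.55, 9.64, 9.48 and 10.24 in parous mice, against 9.90, 9.08, 10.96 and 9.0 in virgin mice. Parous pool 1 and virgin pool 3 were again the highest and virgin pools 2 and 4 the lowest. The log2 fold change was 0.25, with an interval of -0.76 to 1.25 (limma adjusted p = 0.897). Cd3d (CD3 delta, probe set 10584821) was the dimmest and the most variable of the chains, with 7.91, 6.0, 5.47 and 6.45 in parous mice and 6.93, 5.41, 7.89 and 5.44 in virgin mice. Its highest and lowest parous pools differed 5.42-fold, and its highest and lowest virgin pools 5.56-fold, while the group means of 6.46 ± 1.05 in parous and 6.42 ± 1.21 in virgin mice (SD, n = 4 each) differed by 0.04 on the log2 scale (interval -1.50 to 1.58, limma adjusted p = 0.992). To gauge background signal, 1035 probe sets of olfactory receptors, which the mammary gland should not express, served as a reference set. The 95th percentile of their means was 5.53, and Cd3d was above the percentile of its own array on 6 of 8 arrays, so that its lowest readings have little distance from background. All other measured genes of the list were above it on all 8 arrays.

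The coreceptor genes followed the same arrays. Cd4 (probe set 10547894), the MHC class II coreceptor of helper T cells, read 9.86, 8.10, 7.97 and 8.66 in parous mice and 8.95, 8.07, 9.78 and 8.03 in virgin mice. It was the only listed gene with a mean lower in parous mice, by a log2 fold change of -0.06 with an interval of -1.22 to 1.09 (limma adjusted p = 0.980). Cd8a (probe set 10538993), the alpha chain of the MHC class I coreceptor of cytotoxic T cells, read 7.62, 6.44, 6.45 and 6.95 in parous mice, against 6.75, 6.34, 7.56 and 6.21 in virgin mice. In both genes parous pool 1 and virgin pool 3 lay above the other 6 pools, and the ranges of the groups overlapped almost entirely. The log2 fold change of Cd8a was 0.15, with an interval of -0.65 to 0.96 (limma adjusted p = 0.924). For each of the 5 T cell identity genes the interval reached beyond 1.5-fold in both directions.

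On average the granule genes showed a different order of pools. Gzma (granzyme A, a tryptase of cytotoxic T and NK cells, probe set 10412211) had log2 values of 7.97, 8.18, 7.72 and 8.48 in parous mice and 7.49, 7.37, 7.74 and 7.34 in virgin mice. A single pair overlapped, since parous pool 3 read just below virgin pool 3. The means were 8.09 ± 0.32 in parous and 7.49 ± 0.18 in virgin mice (SD, n = 4 each), a log2 fold change of 0.60 with an interval of 0.22 to 0.98, or 1.52-fold. The exact permutation test (2-sided) gave p = 0.0571, where 4 arrays against 4 cannot go below 0.0286. The limma p was 0.00609 before adjustment and 0.219 after adjustment over all probe sets.

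Prf1 (perforin, probe set 10363475) read 7.86, 7.61, 7.61 and 7.92 in parous mice, against 7.19, 7.20, 7.74 and 6.92 in virgin mice. Virgin pool 3 lay above 2 of the parous pools, and the other 3 virgin pools lay below all of them. The log2 fold change was 0.49, with an interval of 0.10 to 0.88 (exact permutation p = 0.0857, limma adjusted p = 0.329). Gzmb (granzyme B, the protease that cleaves caspases in target cells, probe set 10420308) read 8.78, 8.94, 8.38 and 9.30 in parous mice and 8.22, 8.50, 8.24 and 8.57 in virgin mice. Here virgin pool 3 was among the low pools, and parous pool 3 lay within the virgin range. The log2 fold change was 0.47, with an interval of 0.04 to 0.89 (exact permutation p = 0.0857, limma adjusted p = 0.392).

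Nkg7 (a membrane protein of cytotoxic granules needed for their release, probe set 10552406) read 9.69, 9.49, 9.43 and 9.96 in parous mice, against 8.96, 8.90, 9.87 and 9.06 in virgin mice. It shared the high reading of virgin pool 3 with the T cell identity genes, while the remaining virgin pools lay below all parous pools. The log2 fold change was 0.45, with an interval of -0.06 to 0.95 (exact permutation p = 0.143, limma adjusted p = 0.508). Across the list, the larger of the 2 group SDs exceeded the difference between the group means in 6 of 9 genes, namely the 5 T cell identity genes and Nkg7.

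**Figure D2:**
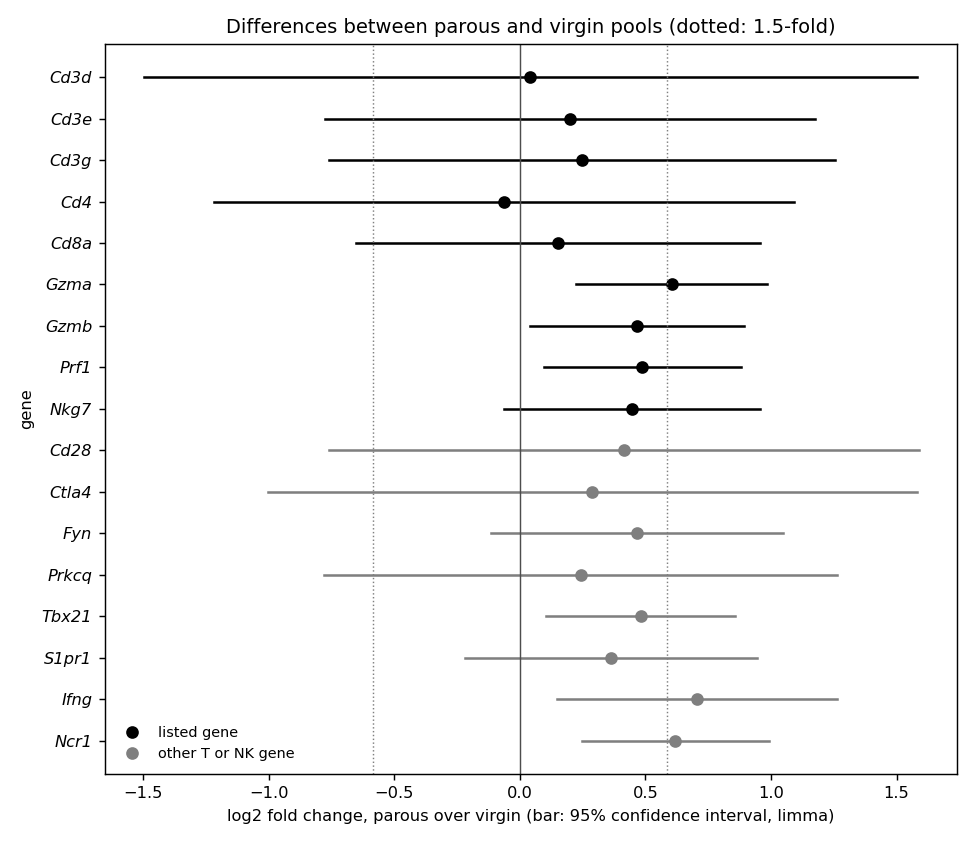
Log2 fold change of parous over virgin mice (x axis) with 95% confidence intervals from limma for the 9 measured lymphocyte genes (black) and 8 further T cell and NK genes (grey). The intervals of the T cell identity genes span 0 widely, and those of Gzma, Gzmb and Prf1 lie above 0 before adjustment for the number of probe sets.

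The pool-to-pool variation was examined by subtracting from each gene its mean over the 8 arrays and averaging over genes. For the 5 T cell identity genes this gave 0.99, -0.39, -0.55 and 0.18 in parous pools 1 to 4 and 0.15, -0.74, 1.09 and -0.74 in virgin pools 1 to 4. Hence the highest pool of each group stood well above the other 3, and both groups covered nearly the same range. The 4 granule genes gave 0.24, 0.22, -0.05 and 0.58 in the parous pools and -0.37, -0.34, 0.06 and -0.36 in the virgin pools. Only virgin pool 3 reached the range of the parous pools, and the highest of all was parous pool 4. The granule genes did not all share the same order of pools. Over the 8 arrays Prf1 and Nkg7 correlated (Pearson's r) with Gzma at 0.84 and 0.81, and with Gzmb at 0.47 and 0.49. With Cd3e they correlated at 0.71 and 0.78, whereas Gzma did so at 0.45 and Gzmb at 0.05. The SD of the T cell identity genes had a median of 0.56 over parous arrays and 0.84 over virgin arrays, compared with medians of 0.13 and 0.15 over all genes. For Cd3d the SD was larger than in 99.8% of probe sets within parous mice and 99.6% within virgin mice. For Gzma the corresponding percentiles were 87.6 in parous and 54.9 in virgin mice.

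**Figure D3:**
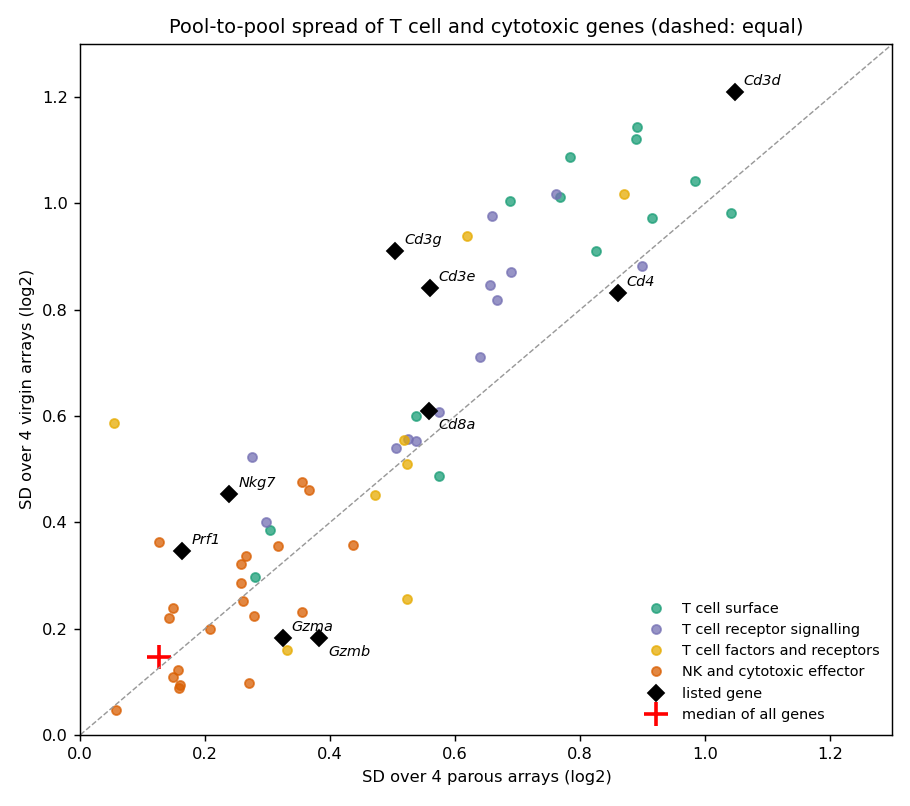
SD over the 4 parous arrays (x axis) against SD over the 4 virgin arrays (y axis), both on the log2 scale, for the listed lymphocyte genes (black diamonds) and the other T cell and NK genes (coloured circles). The red cross marks the medians over all genes at 0.13 and 0.15, and the CD3 and coreceptor genes lie far above it in both groups.

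Parous pool 1 and virgin pool 3 were the top 2 arrays in all 5 T cell identity genes and in none of the 4 granule genes. Among 19937 genes the same 2 arrays were on top in 974 (4.89%). B cell genes moved with them: 13 of 14 measured B cell genes, such as Cd79b of the B cell receptor and the tetraspanin Cd37, had these 2 arrays on top. The mean-centred B cell level ranged from -0.44 to 0.93 in parous mice, highest in pool 1, and from -0.91 to 1.61 in virgin mice, highest in pool 3. Glycam1, a mucin-like glycoprotein of the high endothelial venules of lymph nodes that mammary epithelium also secretes in lactation, read 12.17, 8.86, 8.79 and 9.58 in parous mice and 11.92, 7.74, 12.20 and 7.15 in virgin mice. Chst4, a sulfotransferase of those venules that was picked out after its values were seen, read 7.28, 5.06, 4.76 and 5.17 in parous mice and 6.45, 5.20, 7.12 and 5.01 in virgin mice. Outside parous pool 1 and virgin pools 1 and 3 it lay below the olfactory 95th percentile of every array (5.39 at the lowest). The whole list of lymph node stroma genes (5 of 6 measured) ranged from -0.31 to 0.93 in parous and from -1.07 to 1.20 in virgin mice, and 3 of the 5 had parous pool 1 and virgin pool 3 on top. Madcam1, an adhesion molecule of such venules also named after its values were seen, had another order, with 6.55, 6.29, 6.62 and 5.75 in parous mice and 6.27, 6.95, 6.40 and 7.02 in virgin mice, highest in virgin pools 2 and 4. Ccl19, a chemokine of the T cell zone named by more than 1 probe set, was not among those 3, with 9.50 to 10.29 in parous and 9.41 to 10.27 in virgin mice. The part of lymph node tissue in the spread of the T cell genes was not tested.

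Without parous pool 1 and virgin pool 3, a comparison added after these values had been seen, Cd3e differed by 0.36, Cd3g by 0.46 and Cd3d by 0.05 on the log2 scale. Cd8a differed by 0.18 and Cd4 by -0.11. In the same comparison Gzma differed by 0.73, Prf1 by 0.61, Nkg7 by 0.65 and Gzmb by 0.44. There 0 of the 9 genes were called, beside 96 of all 34760 probe sets. Proliferation genes (11 of 12 measured) had a lower mean-centred level in every parous pool than in every virgin pool. This level was -0.53, -0.52, -0.97 and -0.72 in the parous pools and -0.22, 1.33, -0.26 and 1.89 in the virgin pools. All 11 were lower in parous mice at an unadjusted limma p under 0.05, beside 2135 of all 34760 probe sets, and 0 were called. Virgin pools 2 and 4, the lowest for T cell identity genes, were the highest for the cell cycle. Parous pool 3, however, was the lowest parous pool for both. Ccnb2, a mitotic cyclin, read 8.10, 8.36, 7.41 and 7.86 in parous mice, against 8.55, 10.35, 8.17 and 10.63 in virgin mice, and the mitotic kinase Aurkb had the same 2 virgin pools on top. Leaving out virgin pools 2 and 4, the lowest for the T cell identity genes, raised the virgin means of those genes by construction. All 5 then had negative log2 fold changes, between -0.95 for Cd3d and -0.29 for Cd8a. The 4 granule genes had positive ones, between 0.23 for Nkg7 and 0.62 for Gzmb. Since the pools left out were the low ones for T cell identity, this fit does not test a difference between the classes. None of the 9 was called then either, beside 100 of all 34760 probe sets.

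**Figure D4:**
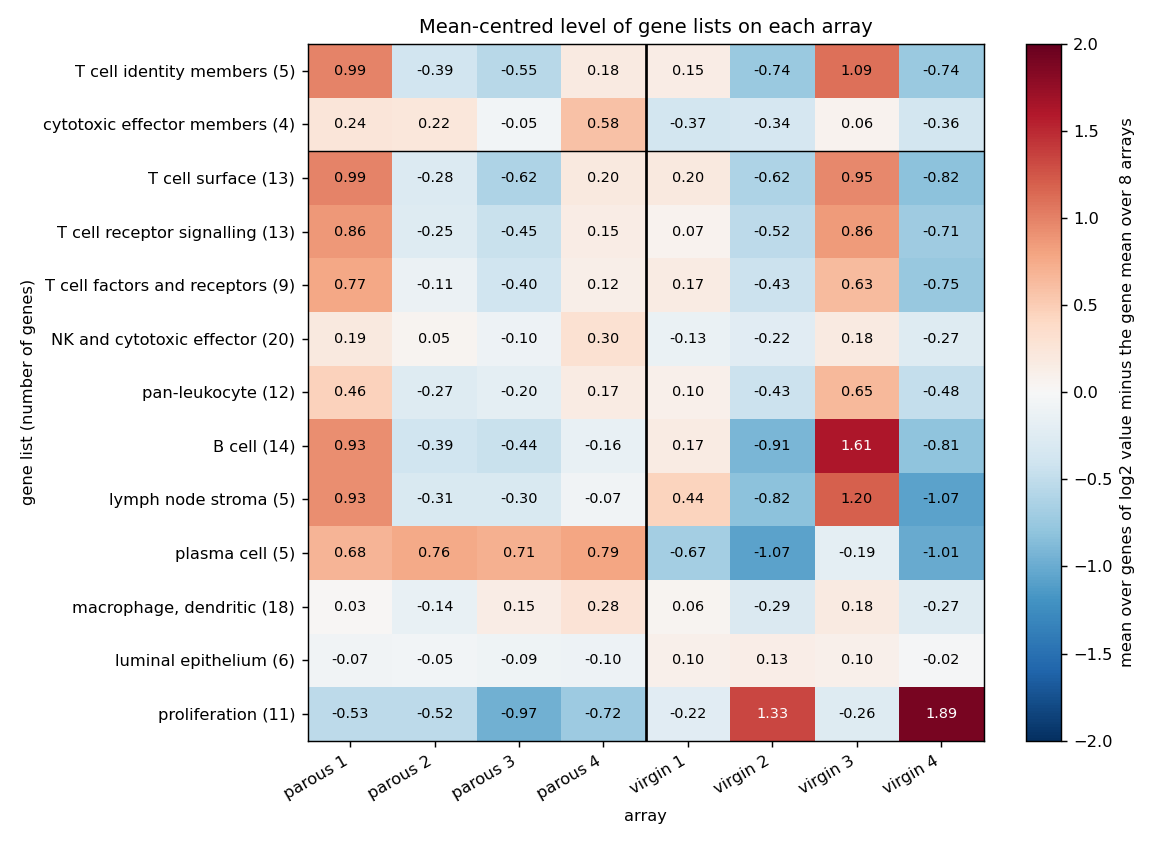
Mean-centred level (colour and printed value, log2 scale, averaged over genes) of the T cell identity genes, the granule genes and 11 further gene lists (rows, number of genes in brackets) on the 4 parous and 4 virgin arrays (columns). T cell, pan-leukocyte, B cell and lymph node stroma lists are highest in parous 1 and virgin 3. The plasma cell list is higher on every parous than on every virgin array, and the luminal epithelium and proliferation lists are lower.

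Further genes of the same cells were taken from 4 lists, of which 55 of 59 genes were measured and 0 were called, beside 0.397% of all probe sets. Of these 55 genes 47 had log2 fold changes above 0 and 8 below, and 3 were higher in parous mice at an unadjusted p under 0.05, a share near the 5.26% of all probe sets. The parous and virgin ranges overlapped in all 55. Of all 34760 probe sets, 1232 (3.54%) had every parous array above every virgin array, and 1410 had every one below. The T cell surface list (13 of 13 measured) had a median log2 fold change of 0.15, and 11 of its genes had parous pool 1 and virgin pool 3 on top. Its largest differences were those of Cd28, the costimulatory receptor, at 0.41 (interval -0.76 to 1.59, limma adjusted p = 0.834) and of Ctla4, its inhibitory counterpart, at 0.29 (limma adjusted p = 0.908). Ctla4 read 8.88, 7.44, 7.07 and 7.93 in parous mice and 8.00, 6.96, 8.82 and 6.37 in virgin mice, with parous pool 1 and virgin pool 3 on top and virgin pools 2 and 4 lowest, as in the CD3 chains Cd3e and Cd3g. The T cell receptor signalling list (13 of 14 measured) had a median of 0.16, and all 13 had these 2 arrays on top. Some genes of these lists, named here after their values were seen, were near background. Sh2d1a of the signalling list was above the olfactory 95th percentile on 0 of 8 arrays and Themis on 6, as was Trat1 of the surface list on 3. Fyn, a kinase of the same family as Lck that many cell types express, had 0.46 (interval -0.12 to 1.05, limma adjusted p = 0.551), and Prkcq, the protein kinase C form of the T cell synapse, had 0.24 (limma adjusted p = 0.901).

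Transcription factors and cytokine or homing receptors of T cells (9 of 12 measured) had a median of 0.14, and 7 of the 9 had the same 2 arrays on top. The medians of these 3 T cell lists were negative without parous pool 1 (-0.16 for the surface, -0.13 for the signalling and -0.13 for the factor list), without virgin pool 2 (-0.032, -0.0090 and -0.010) and without virgin pool 4 (-0.0998, -0.087 and -0.028). S1pr1, the receptor by which lymphocytes leave lymphoid tissue and which endothelium also expresses, had 0.36 (limma adjusted p = 0.656). Tbx21, the T-bet factor shared by NK cells, type 1 helper cells and cytotoxic T cells, read 8.92, 9.11, 8.65 and 9.44 in parous mice, against 8.38, 8.56, 8.76 and 8.49 in virgin mice. Unlike the CD3 chains it was highest in parous pool 4, and a single virgin pool, pool 3, overlapped with the parous range. Its log2 fold change was 0.48 (interval 0.11 to 0.86, limma adjusted p = 0.317).

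The NK cell and cytotoxic effector list (20 of 20 measured) had a median of 0.25, with 17 genes above 0 and 3 below, and 1 of the 20 had parous pool 1 and virgin pool 3 on top. Its median stayed between 0.16 and 0.37 when single arrays were left out. Ifng, the cytokine interferon gamma made by activated NK and T cells, read 8.61, 8.44, 8.12 and 9.16 in parous mice and 7.76, 7.53, 8.37 and 7.85 in virgin mice. Its log2 fold change of 0.71 was the largest of the list (interval 0.15 to 1.26, exact permutation p = 0.0571, limma adjusted p = 0.322). Ncr1, the receptor NKp46 of NK cells and other innate lymphocytes, read 6.61, 6.37, 6.72 and 7.0 in parous mice, against 5.91, 5.83, 6.40 and 6.08 in virgin mice. Virgin pool 3 just exceeded the lowest parous pool, and the log2 fold change was 0.62 (interval 0.25 to 0.99, exact permutation p = 0.0571, limma adjusted p = 0.203). Not every effector gene was expressed above background. Gzmc, Gzmk, Klrb1c and Klre1, the NK receptors and granzymes named here after their values were seen, were below the olfactory 95th percentile on all 8 arrays, with Gzmk between 4.75 and 5.14.

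The genes most like the listed ones over the 8 arrays were then sought among 15392 probe sets that named 1 gene and had a mean above the olfactory percentile. Likeness was Pearson's r with the mean-centred level of the 9 genes over 8 arrays, given as a description, since all points share the same arrays. The 8 closest were Ptpn22, Lcp2, Txk, Arhgap45, Rasal3, Sh2d2a, Gimap3 and Tagap, with r between 0.978 and 0.987. Lcp2 and Txk belong to the T cell receptor signalling list above, as adaptor and kinase, and Ptpn22 encodes a phosphatase of lymphocytes. Ptpn22 read 10.13, 9.36, 8.86 and 9.79 in parous mice and 9.27, 8.80, 9.95 and 8.76 in virgin mice, with parous pool 1 and virgin pool 3 on top. Of the listed genes themselves, Cd3g was closest to their common level (r = 0.979) and Gzmb farthest from it (r = 0.21, n = 8 arrays). Each listed gene was itself part of that level. Genes were not scaled, so the T cell identity genes, with their larger SDs, weighed most in the level and in the choice of the 8 closest. The list of 8 was not stable, since between 0 and 6 of them stayed among the 8 closest when single arrays were left out.

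Markers of other cells set the context. Epithelial genes were among the brightest, with Krt8 between 13.04 and 13.14 in parous and between 13.18 and 13.37 in virgin mice, and Krt18, Acta2 and Krt14 at 10.57 or more on every array. Stromal and myeloid genes (Dcn, Col1a1, Cdh5, Emcn, Lyz2 and C1qb) were also bright, between 9.97 and 13.03, while the adipocyte genes Plin1 and Cidec lay between 5.91 and 6.76. The pan-leukocyte list (12 measured, among them Laptm5 and Cd53) ranged from -0.27 to 0.46 in parous and from -0.48 to 0.65 in virgin mice in mean-centred level. In it 0 genes were called, beside 0.397% of all probe sets, and 9 of 12 were highest in parous pool 1 and virgin pool 3. Plasma cell genes were the exception among lymphocyte lists, with 4 of 5 called higher in parous mice, beside 83 of all 34760 probe sets. Jchain, which joins secreted antibodies, read 11.99, 12.10, 12.16 and 12.28 in parous mice, against 9.70, 9.30, 10.78 and 9.29 in virgin mice (log2 fold change 2.36, limma adjusted p = 0.0173), and Derl3, of the endoplasmic reticulum, was called as well. Median values of the 8 arrays lay between 6.29 and 6.43, and pairs of arrays correlated at 0.976 to 0.993 over all probe sets.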

How the data were processed

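The authors deposited log2 values per probe set, made by background correction, quantile normalization and summarization with the rma() function of the affy package (version not given in the sources used here), from 100 ng of RNA per pool. These values were used as deposited. RMA compresses differences near background and sets all arrays to a common distribution, and the number of arrays limits the precision. Probe sets were named through the platform annotation, with symbols updated through gene identifiers (RefSeq) for 21553 probe sets. Of 34760 probe sets 21640 named 1 gene, 1321 several and 11799 none here. Where a gene had several, the one with the highest mean was used.

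The comparison was fitted with limma (3.58.1, R 4.3.3; 2-sided, no block, Benjamini-Hochberg over all probe sets), with the study's call criteria. The fit was also run on simulated arrays with independent noise. Known changes were not placed in the probe sets with the largest SDs, so that run does not gauge the test for genes as variable as those of T cell identity. Single genes also had an exact permutation test over the 70 splits of 4 against 4 arrays. All confidence intervals are 95%. The genes and lists were chosen with earlier results of these data known. Named in the text were all listed genes, the 2 genes with the largest absolute log2 fold change in each T cell or NK list (up to 4 where any was called), the 8 genes most like the listed ones, and the 2 brightest genes of each other list. Genes named outside this rule are stated as such.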

Additional observations from a re-analysis of the deposited data

How the results depend on the processing

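The count of 0 called genes among the 9 was the same under 19 of 20 alternatives, and became 1 (Gzma) when an unadjusted p replaced the adjusted one, which raised the count over all probe sets to 1030. Raising the fold change criterion to 2 could only keep the count among the 9 at 0. The count over all probe sets, 138, ranged from 42 (without parous pool 3) to 179 (without virgin pool 3) when single arrays were left out. With the replicate number as a block it was 49, and 0 of the 9 genes were called. Per the study, each independent experiment held 1 pool of each group, but neither it nor the labels tie the pool numbers to experiments. Deviations of same-numbered pools correlated at 0.12, 0.18, -0.06 and 0.31 over all probe sets and at 0.89, 0.85, -0.59 and 0.82 over the 9 genes, so that the numbers were not taken as pairs. Over all probe sets, the virgin pools with deviations most like those of parous pools 1, 2, 3 and 4 were pools 3, 2, 1 and 4. Whether parous pool 1 and virgin pool 3 came from the same experiment was not tested. Gzma, Gzmb, Prf1 and Nkg7 kept positive log2 fold changes under all 17 alternatives run for single genes (0.47 to 0.73, 0.32 to 0.62, 0.28 to 0.65 and 0.23 to 0.67), with the lowest adjusted p at 0.0862 for Prf1. Some of these alternatives could not change a log2 fold change, namely the replicate block, a limma fit with trended and robust variances, and the fits on fewer probe sets. Signs of the T cell identity genes other than Cd3g were not stable when single arrays were left out. This gave -0.44 to 0.53 for Cd3d, -0.046 to 0.58 for Cd3e, -0.47 to 0.30 for Cd4 and -0.10 to 0.43 for Cd8a. Cd3g stayed positive, at 0.0019 to 0.66. Outside the listed genes, the ranges were -0.0998 to 0.72 for Ctla4 and -0.065 to 0.60 for Prkcq. The lowest values of Cd3d, Cd4, Cd8a and Prkcq came without parous pool 1, that of Cd3e without virgin pool 2 and that of Ctla4 without virgin pool 4. Without virgin pools 2 and 4 together the median over the 9 genes was -0.29 in place of 0.25, with -0.95 for Cd3d, -0.42 for Cd3e, -0.45 for Cd3g, -0.29 for Cd8a, -0.38 for Cd28, -0.58 for Ctla4, -0.39 for Prkcq and -0.11 for S1pr1. Virgin pools 2 and 4 were the lowest for the T cell identity genes, so lower fold changes of those genes followed from the choice of arrays. Why these pools were low was not tested. Leaving out single arrays gave medians over the 9 genes of 0.031 to 0.58. Array weights gave a median of 0.043 over the 9 genes, and -0.086, -0.044 and -0.050 over the T cell surface, signalling and factor lists, with -0.23 for Cd3d, -0.022 for Cd8a and -0.0057 for Ctla4. Renewed quantile normalization and median centring moved the range of the listed genes' mean-centred level over arrays from 1.23 to no more than 1.32.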
